A study of Homo sapiens with 11 samples.

Results

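Estradiol-only regions are stretches of the genome where acetylated histone H3 lysine 27 (H3K27ac) was called as a peak after estradiol and in no other treatment. The cells were Ishikawa, an established line from a human endometrial cancer. The members were chosen by the authors' H3K27ac peak calls: overlapping or adjoining peaks of the 4 H3K27ac lists were merged, and a merged region was taken when it held an estradiol peak and no combination, dexamethasone or vehicle peak. The rule found 3899 estradiol-only regions among 27111 merged regions, which is 14.4% of all. They made up 65.9% of the 5919 regions with an estradiol peak and no vehicle peak, a class that held 21.8% of all merged regions.

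Cells received 10 nM estradiol, 100 nM dexamethasone together with 10 nM estradiol (the combination), 100 nM dexamethasone, or the vehicle DMSO. H3K27ac was mapped after 8 h per the treatment labels, and the estrogen receptor (ER) and the glucocorticoid receptor (GR) after 1 h. The treatment protocol text of the H3K27ac samples gives 1 h instead; the treatment labels were followed, so the time of the acetylation maps is uncertain. All cells shared a medium without phenol red and with charcoal-treated serum, in which steroid hormones are depleted, for at least 4 days beforehand. Of 11 samples, 8 were analysed here as peak lists, with 1 library per group, so no spread between replicates can be given and no p-value was computed. Ishikawa cells are a single established line, and whether a library pools cultures is not given in the sources used here.

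Estradiol is the natural ligand of ER, which on binding hormone attaches to DNA and recruits acetyltransferases that mark nearby nucleosomes with H3K27ac, the mark of active enhancers and promoters. Dexamethasone is a synthetic ligand of GR, a related receptor that binds its own DNA element and can also be drawn to chromatin held by other factors. In the endometrium estrogen drives epithelial growth, and glucocorticoids can oppose or modify estrogen responses.

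Usable tags of the H3K27ac libraries numbered 10852521 with estradiol, 9657258 with the combination, 9034395 with dexamethasone and 18508574 with vehicle. The vehicle library was scaled down to the 14002417 tags of its control in peak calling. Duplicate tags made up 19% of the estradiol library, 22% of the combination library, 33% of the dexamethasone library and 18% of the vehicle library. The lists held 23888 estradiol, 20873 combination, 15192 dexamethasone and 21120 vehicle peaks, so the estradiol list was the longest although its library was shallower than that of vehicle. Receptor libraries had 5206574 to 8508828 usable tags. The part of list length and depth in the membership of the set was not tested beyond the cut lists given in the closing section.

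Estradiol had the most regions of its own in the lists as deposited, but not in lists of equal length: with all 4 cut to the shortest, 1626 regions were estradiol-only and 2586 dexamethasone-only. In the whole lists, beside the 3899 estradiol-only regions stood 1170 combination-only, 1451 dexamethasone-only and 726 vehicle-only regions. Regions held by the estradiol and combination lists and by neither of the others, called combination-shared regions here, numbered 1447. A further 3049 regions were in the estradiol and vehicle lists only, and 7516 were in all 4 lists. Among the 15 presence patterns found, estradiol only came after all 4 lists (7516) and the estradiol, combination and vehicle lists (5699).

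**Figure D1:**
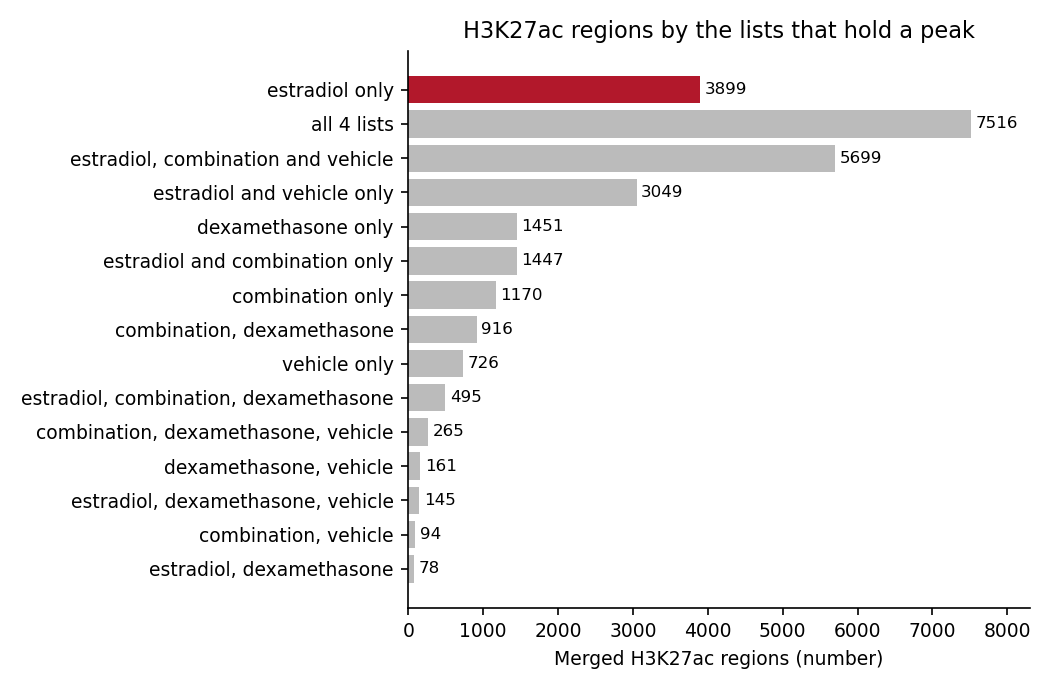
Number of merged H3K27ac regions for each combination of lists that hold a peak there (horizontal axis, number of regions, starting at 0). The 3899 estradiol-only regions (red) outnumber the 1170 combination-only, 1451 dexamethasone-only and 726 vehicle-only regions.

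Estradiol-only regions were narrow and lay in the weaker part of the estradiol list. Their width ranged from 273 to 1679 bp with a median of 353 bp, against a median of 645 bp for combination-shared regions and 1562 bp for regions of all 4 lists. The narrowest width equalled the fragment length of 273 bp that the peak caller used for this library. All 3899 held exactly 1 estradiol peak, and together they covered 1573 kb. These values are given as a description, since the peak calls that chose the regions also set them.

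The acetylation peaks were also low. The authors' fold enrichment (tag pileup at the summit over the local control background) ran from 3.28 to 18.3 in estradiol-only regions with a median of 7.79. The median of the strongest estradiol peak was 9.27 in combination-shared regions, 9.44 in regions of estradiol and vehicle, and 16.5 in regions of all 4 lists. The summit pileup of estradiol-only regions had a median of 31 fragments, with 25% at or below 26 and 25% at or above 37. The highest was 78, while the highest in combination-shared regions was 233.

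Ranked by the authors' −log10 q (the peak's significance after correction within the list), estradiol-only regions were absent from the top of the estradiol list. These shares too are a description, since the rule used the same peak calls. None of the strongest 5972 peaks of the list was an estradiol-only region (0%). Estradiol-only regions made up 1.67% of the second quartile, 20.2% of the third and 43.4% of the weakest. Seen from the set, 66.5% of estradiol-only regions came from the weakest quartile of the list. A minority were still stronger than many shared regions: 763 of 3899 (19.6%) exceeded the median −log10 q of combination-shared regions.

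**Figure D2:**
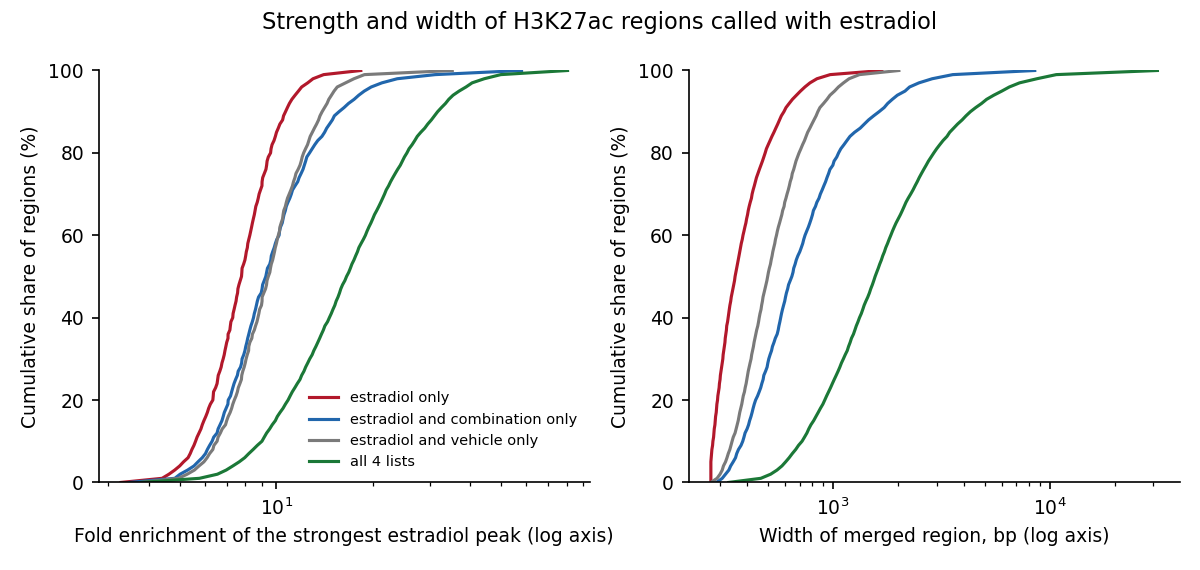
Cumulative share of regions (vertical axis, percent) by fold enrichment of the strongest estradiol peak (left, log axis) and by width in bp (right, log axis) for 4 presence patterns. The estradiol-only curve lies farthest left in both panels, with medians of 7.79 and 353 bp, and the curve of all 4 lists lies farthest right.

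Absence from a list means that no peak passed the authors' p cutoff of 1e-10, and it says nothing of the level below that cutoff. The label of the set speaks of acetylation blocked by dexamethasone; peak lists cannot show this, and the regions are called estradiol-only here. Peaks as low as the median estradiol-only region were common in the other lists. A pileup of at most 31 was found for 21.6% of estradiol peaks, 30.9% of combination peaks, 49.0% of dexamethasone peaks and 15.9% of vehicle peaks. Pileups of the vehicle list were scaled to the control library, and those of the hormone lists stand at each library's own depth.

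The edge of the set can be read from the regions nearest the cutoff. The weakest members had a −log10 p of 10.04 in the estradiol list. These were chr10:80889247-80889786 and chr19:50879303-50879652, each with a pileup of 29. The next were chr17:17991342-17991774 with 10.4 and a pileup of 33, chr20:35437646-35437980 with 10.4 and a pileup of 24, and chr5:43426958-43427264 with 10.4 and a pileup of 24. Just outside the set lay regions kept out by a weak peak elsewhere. At chr6:37060459-37061347 the estradiol peak reached a −log10 p of 37.99 and the combination peak 10.7. At chr10:74385243-74385765 the estradiol peak reached 26.0 and the vehicle peak 10.2. At chr6:32144224-32144669 the estradiol peak reached 17.1 and the dexamethasone peak 11.2.

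The strongest estradiol-only region was chr5:149737281-149737942, 662 bp wide, with a pileup of 68 and a fold enrichment of 13.7. The nearest combination peak lay 90155 bp away and no receptor site lay within 1 kb. Next came chr1:21567858-21569462, 1605 bp wide, with a pileup of 65 and a fold enrichment of 13.5. It held an ER site of the estradiol list and one of the combination list, and its nearest vehicle peak was 63992 bp away. Neither had a peak of another list within 50 kb.

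The next was chr8:126104066-126104482 with a pileup of 73 and a fold enrichment of 11.5, and with no vehicle peak within 93670 bp. It was followed by chr19:47880794-47881877 with a pileup of 68 and a fold enrichment of 12.2. This region lay 353 bp from a combination peak and 275 bp from a vehicle peak. The last of the 5 was chr13:114746028-114746785 with a pileup of 55, a fold enrichment of 15.8 and a combination peak 3184 bp away. Of these 5 strongest regions, the one on chromosome 1 carried a receptor site, and the other 4 carried none within 1 kb.

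A large share of estradiol-only regions bordered acetylation that other treatments also had. A peak of at least 1 of the other 3 lists lay within 1 kb of 1695 regions (43.5%, 41.9 to 45.0). A combination peak was that near to 1298 regions (33.3%), a vehicle peak to 1296 (33.2%) and a dexamethasone peak to 418 (10.7%). The dexamethasone list was the shortest. The median distance to the nearest peak was 10314 bp for the combination list, 54038 bp for dexamethasone and 8890 bp for vehicle. At the other end, 779 estradiol-only regions (19.98%) had no peak of the other lists within 50 kb.

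Bordering another peak was at least as frequent for the regions of the other single lists. A peak of some other list lay within 1 kb of 51.2% of combination-only, 59.7% of dexamethasone-only and 54.4% of vehicle-only regions. For estradiol-only regions the share was 43.5%. The same lists chose the regions, so these shares are a description and not a test. Each of those 3 comparisons includes the long estradiol list as a neighbour, which the estradiol-only regions by definition lack.

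Where an estradiol-only region had a neighbour within 1 kb, that neighbour held a vehicle peak in 1340 of 1695 cases (79.1%, 77.0 to 81.0), beside 76.1% (75.5 to 76.6) of all 23212 regions outside the set. The nearest such region was in the estradiol, combination and vehicle lists in 526 of 1695 cases (31.0%) and in all 4 lists in 419 (24.7%). It was in the estradiol and vehicle lists only in 326 (19.2%) and combination-shared in 210 (12.4%). Of all 27111 merged regions, these patterns held 21.0%, 27.7%, 11.2% and 5.34% in that order. The 27111 include the estradiol-only regions, which cannot be such neighbours. The neighbours within 1 kb had a median width of 713 bp. Where the neighbour held an estradiol peak, that peak was the stronger one in 1354 of 1514 cases (89.4%). This is a description and no trait of bordering regions, since estradiol-only regions were weak in the list as a whole. Their median −log10 q was 18.1. It was 47.8 in regions of the estradiol, combination and vehicle lists and 71.1 in regions of all 4 lists. The median fold enrichment of estradiol-only regions was 7.59 within 1 kb of another list's peak and 8.12 beyond 50 kb.

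Most estradiol-only regions had no other member close by. Joining members up to 20 kb apart left 2629 of 3899 on their own and placed 1270 in 520 groups of 2 or more. Joining them up to 1 kb apart placed 617 in groups. The same was not computed for other patterns. The largest group, singled out after its values were seen, held 13 estradiol-only regions at chr10:529029-587819, a span of 58.8 kb. Their fold enrichment ran from 4.96 to 15.5, and 1 of the 13 had an estradiol ER site within 1 kb. The same span held 7 other H3K27ac regions, of which 7 had a combination peak and 2 a vehicle peak. The next group had 8 members at chr19:3340485-3401555, none with an ER site within 1 kb.

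Over chromosomes, estradiol-only regions were spread unevenly. Chromosome 17 held 7.05% (6.27 to 7.90) of them and 5.11% (4.83 to 5.40) of all other merged regions, and chromosome X held 3.41% (2.86 to 4.03) and 2.29% (2.103 to 2.49). Of 23 chromosomes compared, the share was higher with separate 95% intervals on 5 (16, 17, 19, 22 and X) and lower on 4 (4, 6, 12 and 18). Against the other regions with an estradiol peak, it was higher on 8, 17, 22 and X and lower on 12 and 18. No adjustment was made for the 23 comparisons.

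ER is the receptor that estradiol activates, and its sites come from other libraries than those that chose the regions. Of the 3899 estradiol-only regions, 312 had an ER site of the estradiol list no more than 1 kb away (8.00%, 7.17 to 8.90). Among combination-shared regions 474 of 1447 had one (32.8%, 30.3 to 35.2), a ratio of 0.244 (0.215 to 0.278). Over all merged regions the share was 9.49%, near that of estradiol-only regions. Against the 23212 other regions, of which 9.74% had such a site, the ratio was 0.822 (0.733 to 0.920). Intervals of shares here and below are 95% exact Clopper-Pearson intervals over regions or sites, and those of ratios are 95% intervals on the log scale. They cover counting error only, since neighbouring regions of a library are not independent replicates.

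ER sites were more frequent at estradiol-only regions than at regions called with vehicle or dexamethasone alone, which were also narrow. Vehicle-only regions, with a median width of 301.5 bp, had an estradiol ER site in 9 of 726 cases (1.24%, 0.568 to 2.34), a ratio of 6.45 (3.34 to 12.5). Dexamethasone-only regions, with a median width of 304 bp, had one in 2.07% (1.40 to 2.94), and regions of the estradiol and vehicle lists in 2.13% (1.65 to 2.71). Combination-only regions were narrow too, with a median width of 344 bp, and had one more often, in 15.0% (13.0 to 17.2). The ratio of estradiol-only to combination-only was 0.532 (0.448 to 0.632).

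ER mapped with dexamethasone added was likewise less frequent at estradiol-only than at combination-shared regions. An ER site of the combination list lay within 1 kb of 211 estradiol-only regions (5.41%, 4.72 to 6.17), against 402 combination-shared regions (27.8%, 25.5 to 30.2) and 7.05% of all merged regions. The difference was smaller between narrow regions. From 301 to 353 bp the shares were 5.24% and 8.00%, a ratio of 0.655 (0.291 to 1.48). From 450 to 1679 bp they were 7.87% and 27.1%, a ratio of 0.290 (0.229 to 0.367). Of the 312 estradiol-only regions with an estradiol ER site, 207 (66.3%, 60.8 to 71.6) also had a combination ER site within 1 kb. The share among combination-shared regions with an estradiol ER site was 83.3% (79.7 to 86.6).

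Few estradiol-only regions had a GR site nearby, and the comparison depended on the pattern set beside them. GR sites of the dexamethasone list were that near to 29 regions (0.744%, 0.499 to 1.07), against 2.004% (1.35 to 2.87) of combination-shared regions and 4.63% of all merged regions. A combination GR site lay near 45 estradiol-only regions (1.15%, 0.843 to 1.54), against 11.9% (10.3 to 13.7) of combination-shared regions and 4.54% of all merged regions. Regions of all 4 lists had GR more often, with 9.07% for dexamethasone GR and 7.29% for combination GR. Regions called with estradiol and vehicle but not with dexamethasone had GR as seldom or less often. Dexamethasone GR lay near 0.632% (0.443 to 0.873) of regions of the estradiol, combination and vehicle lists and 0.558% (0.325 to 0.891) of regions of the estradiol and vehicle lists, with intervals that overlapped that of estradiol-only regions. Combination GR lay near 0.825% (0.607 to 1.095) of regions of the estradiol, combination and vehicle lists, a ratio of estradiol-only to these regions of 1.40 (0.932 to 2.102). It lay near 0.230% (0.0924 to 0.472) of regions of the estradiol and vehicle lists, a ratio of 5.03 (2.27 to 11.1). Of the 45 estradiol-only regions with combination GR, 41 also had an estradiol ER site and 13 a dexamethasone GR site. Altogether 3565 of 3899 estradiol-only regions (91.4%) had no site of any of the 4 receptor lists within 1 kb, against 951 of 1447 combination-shared regions (65.7%).

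**Figure D3:**
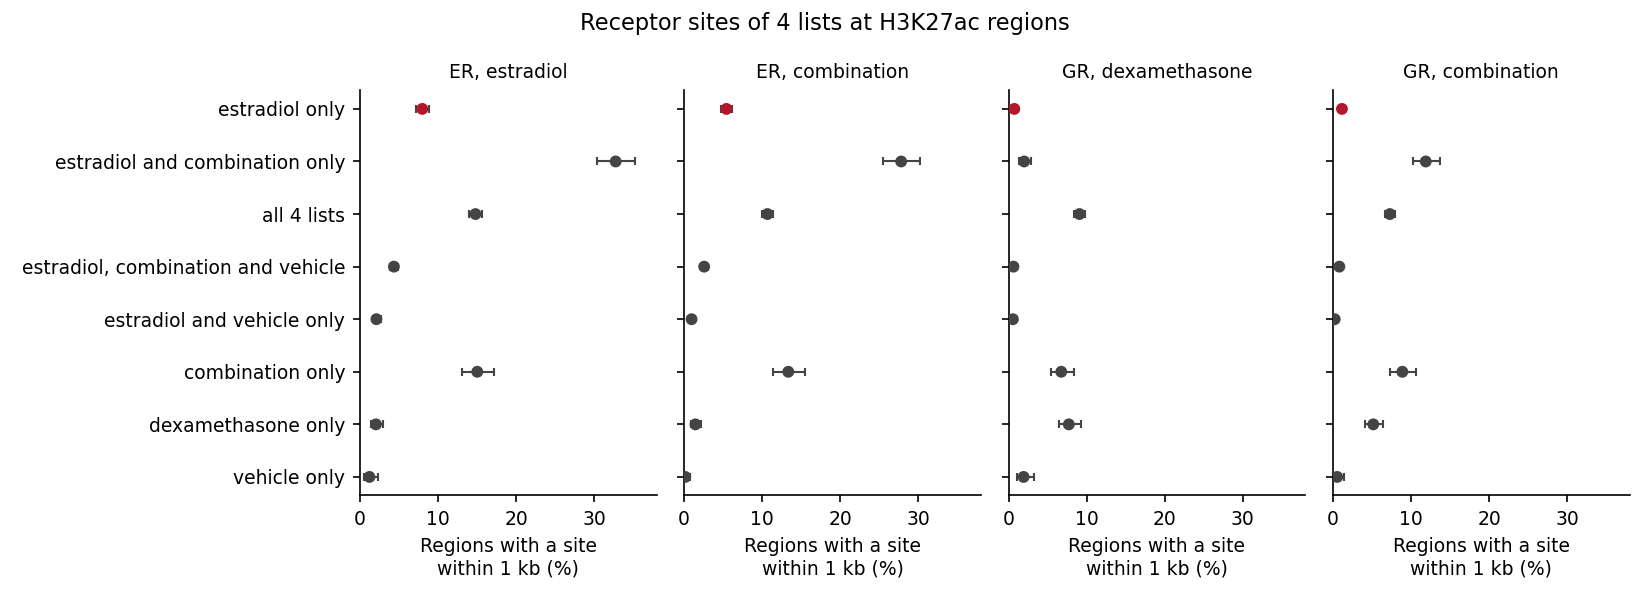
Share of H3K27ac regions with a receptor site within 1 kb (horizontal axis, percent) for 8 presence patterns and 4 receptor lists; bars are 95% exact intervals over regions. Estradiol-only regions (red) show 8.00% for estradiol ER and 1.15% for combination GR, below the 32.8% and 11.9% of regions of estradiol and combination only.

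The distance allowed to the site changed the size of the difference between the sets. Counting only ER sites that overlapped the region, 79 estradiol-only regions (2.03%, 1.61 to 2.52) had one, against 19.3% (17.3 to 21.4) of combination-shared regions. Within 10 kb the shares were 20.3% (19.1 to 21.6) and 50.9% (48.3 to 53.5). Where an ER site lay within 1 kb, the ER summit was a median of 426.5 bp from the acetylation summit in estradiol-only regions and 418.5 bp in combination-shared regions. It was within 100 bp in 3.21% and 2.53% of these regions.

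Among estradiol-only regions of all widths together, the ER share differed little by strength of acetylation. By quartile of −log10 q, weakest to strongest, 9.36%, 7.89%, 7.33% and 7.43% had estradiol ER within 1 kb, with overlapping intervals. Combination-shared regions in the same ranges of strength had one in 16.8%, 23.8%, 22.6% and 34.8%. The ratio of the sets was 0.559 (0.380 to 0.821) in the weakest range and 0.214 (0.168 to 0.273) in the strongest. A further 121 combination-shared regions were stronger than any estradiol-only region, and 81.8% of them had an ER site.

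The ER share was highest among the widest regions in both sets. By width quartile, narrowest to widest, 5.39%, 7.40%, 7.63% and 11.5% of estradiol-only regions had an estradiol ER site within 1 kb. In the third quartile, from 353 to 450 bp, combination-shared regions had one in 15.3%, a ratio of 0.498 (0.341 to 0.727). In the widest, from 450 to 1679 bp, they had one in 32.8%, a ratio of 0.352 (0.290 to 0.427). Below 353 bp there were only 84 combination-shared regions, and both intervals of the ratio included 1: 0.485 (0.0751 to 3.14) in the narrowest quartile and 0.793 (0.378 to 1.66) in the second. Taking all regions of at most 353 bp and splitting them by strength at the median −log10 q of estradiol-only regions gave ratios in opposite directions. In the weaker ones 7.75% (6.30 to 9.41) of estradiol-only and 17.1% (7 of 41) of combination-shared regions had ER, a ratio of 0.454 (0.225 to 0.916). In the stronger ones the shares were 4.27% (2.94 to 5.97) and 2.22% (1 of 45), a ratio of 1.92 (0.268 to 13.7). Among these narrow estradiol-only regions the weaker ones thus had ER more often, with separate intervals. Above 353 bp the estradiol-only shares were 9.79% (7.78 to 12.1) in the weaker and 9.47% (7.86 to 11.3) in the stronger ones.

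**Figure D4:**
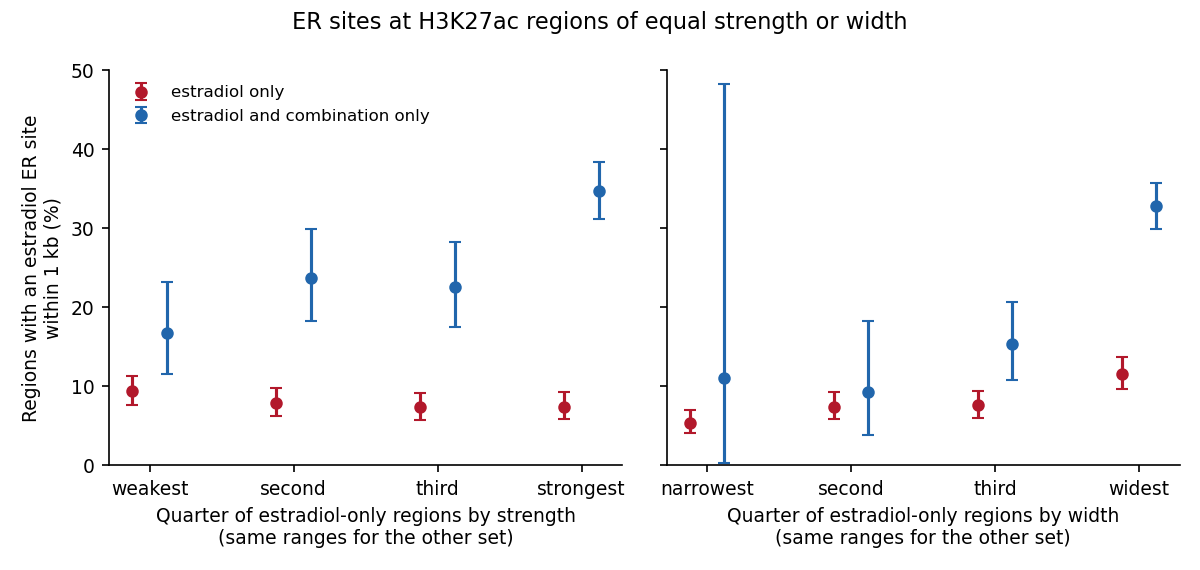
Share of regions with an estradiol ER site within 1 kb (vertical axis, percent) by quartile of estradiol-only regions in strength (left) and width (right); bars are 95% exact intervals over regions. Estradiol-only regions (red) stay between 5.39% and 11.5%, while regions of estradiol and combination only (blue) reach 34.8% in the strongest and 32.8% in the widest range.

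The ER share was also read by distance to other acetylation. Estradiol-only regions within 1 kb of another list's peak had an estradiol ER site within 1 kb in 7.73% (6.50 to 9.10). Those more than 50 kb from any such peak had one in 7.57% (5.82 to 9.66), and the intervals overlapped.

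The strongest estradiol-only regions with an ER site, after the region on chromosome 1 described above, began with chr20:62322858-62323927, with an H3K27ac fold enrichment of 15.6. Its ER site, chr20:62322466-62322693, was the 57th strongest of the 3560 estradiol ER sites with a fold enrichment of 44.2. That site was also called with the combination, with a fold enrichment of 26.0 in that list, whose library had its own depth and scaling. At chr17:27294832-27295993 (H3K27ac 13.7) a weak ER site with a fold enrichment of 11.9 was called with estradiol and also with the combination. At chr12:69238050-69238516 (12.4) the ER site had a fold enrichment of 24.8 and was likewise called in both ER lists.

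At 105 estradiol-only regions there was ER in the estradiol list and none in the combination list within 1 kb. Both the acetylation peak and the ER peak were thus missing from the combination lists. Estradiol ER sites that overlapped no combination ER site were not more often near an estradiol-only region. Of these, 7.35% (6.02 to 8.87) lay within 1 kb of one, against 8.45% (7.33 to 9.70) of the sites that overlapped one. The list of combination ER sites was the shorter, with 2382 sites against 3560. The strongest of the 105 regions was chr17:2305555-2305931, with an H3K27ac fold enrichment of 13.7 and an ER fold enrichment of 14.5. It was followed by chr7:150822099-150823083 (14.8 and 12.3), chr13:114533850-114534548 (14.9 and 10.1), chr1:178693883-178694269 (12.8 and 16.8) and chr19:13065838-13066412 (10.7 and 10.1). In the order named, the nearest combination H3K27ac peak lay 1235, 8226, 5306, 182124 and 450 bp away. The ER sites of these 5 regions ranked between 1553 and 3247 among the 3560 estradiol ER sites, all in the weaker 50% of that list but the one on chromosome 1.

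Of the 61 estradiol-only regions with a GR site of either list, the strongest was chr22:28195920-28196485, with an H3K27ac pileup of 51 and a fold enrichment of 10.7. It carried the 6th strongest site of the estradiol ER list, chr22:28195642-28196101, with a fold enrichment of 54.7. The ER fold enrichment in the combination list was 56.6 there, and a combination GR site was called with a fold enrichment of 16.8. The nearest H3K27ac peak of the combination list lay 71701 bp away. ER was thus called in both ER maps, and acetylation with estradiol alone.

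The next regions with GR had the same make-up. Each of chr17:77915901-77917364, chr6:125476272-125476587, chr7:2578266-2579012 and chr16:74984123-74984574 had ER called with estradiol and with the combination, had GR called with the combination, and had no dexamethasone GR site. Their ER fold enrichments in the estradiol list were 35.5, 32.0, 44.9 and 15.7 in that order. Their GR fold enrichments in the combination list were 11.5, 7.81, 12.7 and 12.1. The regions on chromosomes 6, 7 and 16 had a combination H3K27ac peak 217, 528 and 548 bp away.

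Seen from the receptor, 286 of 3560 estradiol ER sites (8.03%, 7.16 to 8.98) lay within 1 kb of an estradiol-only region and 412 (11.6%) within 1 kb of a combination-shared region. Of the 286, 131 also lay near a region of another pattern, among them the 57 near a combination-shared region, and 46 lay near 2 or more estradiol-only regions. These sites spanned the range of ER strength: 98 of 286 (34.3%) belonged to the strongest 25% of the estradiol ER list, and their median fold enrichment was 15.9, against 14.0 for all ER sites. At combination-shared regions 48.8% belonged to the strongest 25%. Of the 100 strongest ER sites, 11 lay near an estradiol-only region and 37 near a combination-shared one.

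Most ER sites at estradiol-only regions were also ER sites with dexamethasone added, in a share near that of all estradiol ER sites. Of the 286, 186 overlapped a combination ER site (65.0%, 59.2 to 70.6), against 322 of 412 at combination-shared regions (78.2%, 73.8 to 82.1) and 61.8% of all estradiol ER sites. The shares were then read by ER strength. In the strongest 25% the share was 98.0% (92.8 to 99.8) at estradiol-only and 99.5% (97.3 to 100.0) at combination-shared regions, and in the weakest 25% it was 23.1% (12.5 to 36.8) and 15.4% (6.88 to 28.1). The quartile next to the weakest had 35.9% (24.3 to 48.9) and 55.7% (43.3 to 67.6). Intervals overlapped in all 4 quartiles. The 57 sites near both kinds of region were counted in both sets, here and for GR below, so the sets are not separate.

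GR of the combination was found less often on these ER sites than on those at combination-shared regions. A combination GR site overlapped 33 of the 286 (11.5%, 8.08 to 15.8), against 121 of 412 at combination-shared regions (29.4%, 25.01 to 34.0) and 19.7% of all estradiol ER sites. The intervals were also separate within the strongest 25% of ER sites, where the shares were 23.5% (15.5 to 33.1) at estradiol-only and 46.3% (39.2 to 53.4) at combination-shared regions. In the other 3 quartiles the intervals overlapped. Over all ER strengths, the share was 12.9% at regions of the estradiol, combination and vehicle lists. It was 2.86% at regions of the estradiol and vehicle lists only and 27.7% at regions of all 4 lists. Sites with no H3K27ac region within 1 kb had a combination GR site in 9.16%. ER sites of the strongest 25% with no H3K27ac region within 1 kb had a combination GR site in 20.9% (15.2 to 27.5), an interval that overlapped that at estradiol-only regions. Dexamethasone GR overlapped 2.45% (0.990 to 4.98) of ER sites at estradiol-only and 2.67% (1.34 to 4.73) at combination-shared regions, both below the 10.0% of all estradiol ER sites. Low shares were not particular to these sets. The share was 2.97% at sites with no H3K27ac region and 5.17% at regions of the estradiol, combination and vehicle lists. At regions of all 4 lists it was 20.2%.

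**Figure D5:**
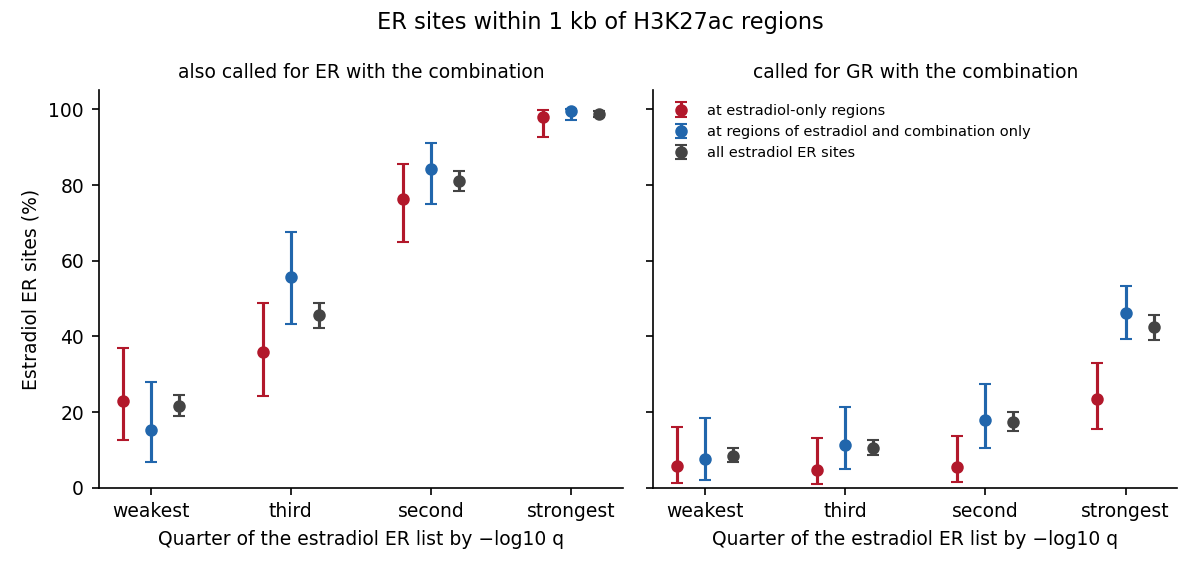
Share of estradiol ER sites (vertical axis, percent) that overlap a combination ER site (left) or a combination GR site (right), by quartile of ER strength, weakest to strongest; bars are 95% exact intervals over sites. In the strongest quartile the sites at estradiol-only regions (red) reach 98.0% for ER, beside 99.5% at regions of estradiol and combination only (blue), but 23.5% for GR, beside 46.3%.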

How the data were processed

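ER, GR and H3K27ac were mapped by ChIP-seq in Ishikawa cells. The submitters' processing notes name hg19, Bowtie 1.1.2 and MACS2 2.1.0.20140616. Each list came, per the file headers, from 1 library against 1 control at a p cutoff of 1e-10, with 1 tag per position and the deeper of ChIP and control scaled down to the other. Deposited by the authors were the pileup (a signal: fragment coverage at the summit), the fold enrichment (a ratio to the local control of windows up to 10000 bp), and −log10 of the p-value and q-value. The headers state that q-values would not be calculated, yet the column holds values; it served only to rank peaks within a list.

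Peaks were merged and compared with Python 3.11.15, pandas 2.3.3 and SciPy 1.17.1. Receptor sites counted when within 1 kb of a region; receptor sites were compared with each other by overlap of at least 1 bp. Ratios of shares carry 95% intervals on the log scale. The merging and distance code was tested on simulated peaks. Regions named are the 5 of highest −log10 q in the whole set, with ER, with ER missing from the combination list, and with GR, and the 5 nearest the cutoff. The members and classes were chosen with earlier results of these data known. The groups of nearby members, the breakdowns by distance to another list's peak, the vehicle share of neighbours, and 2 alternatives were added after the peaks were seen. Vehicle receptor samples and the control sample were not analysed here. Genes, promoters, motifs and marker genes were not analysed here, for want of an hg19 annotation or sequence, so the identity of the line was not checked against marker genes. Labels give no number that pairs libraries.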

Additional observations from a re-analysis of the deposited data

How the results depend on the processing

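No paired analysis was possible because each group holds 1 library. The number of estradiol-only regions, 3899, depended on how peaks were merged and how long the lists were. It was 2200 and 1906 with peaks up to 500 bp and 1 kb apart merged, 1626 with all lists cut to the shortest, 2475 with the estradiol list cut to the length of the combination list, 1932 with every list cut to its stronger 50%, 101 with only the estradiol list so cut, and 2204 without regions that had another list's peak within 1 kb. Cutting 3 lists to the combination list's length and dropping dexamethasone, an alternative added after seeing the data, gave 2579. With all lists cut to the shortest, dexamethasone had more regions of its own (2586) than estradiol (1626), and in the 3 cut lists the combination had more (2775, against 2579 for estradiol).

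The share with an estradiol ER site was 7.14% with merging at 1 kb, 10.9% in the stronger 50% of the estradiol list, 2.03% for sites inside the region, 20.3% within 10 kb, 5.00% with the ER list cut to its stronger 50%, and 4.67% counting ER sites near no region of another pattern (added after seeing the data). Its ratio to combination-shared regions stayed below 1, with its interval, in all alternatives run (0.105 to 0.399). For dexamethasone GR the share was 0.308% with lists cut to the shortest, 0% in the stronger 50% of the estradiol list (101 regions), 0.256% inside the region and 4.46% within 10 kb. For combination GR it was 1.98% in that stronger 50%, 0.154% inside the region and 6.10% within 10 kb. ER sites also called with the combination were 71.6% with merging at 1 kb, 75% in the stronger 50% of the estradiol list (9 of 12 sites) and 72.1% inside the region. Another list's peak lay within 500 bp of 34.2% and within 5 kb of 53.7%. The cause of these shifts was not tested beyond what each setting changes by construction. The other 46 values stayed within the 95% interval of the reported share, within 1.5 times the reported count or, for the ratio, below 1 with their upper limit.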
